A study of Mus musculus with 5 samples.

Results

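The CHD genes encode chromodomain helicase DNA-binding proteins, ATP-driven machines that slide, evict or space nucleosomes. The analysis covered the rows with the symbols Chd1, Chd2, Chd3, Chd4, Chd6, Chd7, Chd8 and Chd9, 8 genes of the 23284 in the count tables, and all 8 were measured deeply enough to be tested. The libraries were made from polyA RNA of mouse neural tubes, the embryonic tissue that becomes the brain and spinal cord, labelled as embryonic day 8.5 (the study's methods give a slightly later stage). EpoR-null embryos (EpoR -/-, n = 2) lacked the erythropoietin receptor and were compared with 3 littermate controls, of which 2 were wild type (EpoR +/+) and 1 heterozygote (EpoR +/-). The embryos came from the breeding of heterozygous mice, and no treatment is given for any group. The labels name each library as a separate sample and do not say which embryos shared a litter.

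CHD proteins carry paired chromodomains, which contact histone tails, beside a motor domain of the SNF2 type. CHD1 and CHD2 work on transcribed genes. CHD3 and CHD4 are alternative motors of NuRD, a complex that joins nucleosome remodelling to histone deacetylation. CHD6 to CHD9 form a further branch, in which CHD7 is mutated in CHARGE syndrome and CHD8 in a form of autism, and CHD7 is required in neural crest and neural progenitors.

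Reads counted on genes numbered from 19316126 to 41169218 per library, so that 3 reads correspond to between 0.0715 and 0.152 CPM (reads scaled to a common library size, with TMM factors between libraries). The neural tube markers Sox1, Sox2, Sox3, Pax3, Pax6, Pax7, Nes and Cdh2 were all expressed, with a summed level from 1451 to 1989 CPM, and 0 of the 8 passed the test. Epor itself had 57 and 68 reads in the wild type libraries, 7 and 19 in the EpoR-null libraries and 11 in the library labelled heterozygote. The last corresponds to 0.476 CPM (exact Poisson 95% interval 0.237 to 0.851, counting error only), which lay between the EpoR-null values of 0.354 and 0.669 CPM and below both wild type values. That library also stood apart in other cells. The summed level of 6 primitive erythroid genes was 43.9 CPM there, against 600.4 and 1087 CPM in wild type and 962.7 and 1688 CPM in EpoR-null, and 5 endothelial genes summed to 10.7 CPM there, against 107 to 248 CPM elsewhere. None of the tested markers of other tissues passed. Their median log fold changes (log2, EpoR-null minus control) were 0.93 for the 6 erythroid genes, 0.15 for the 5 endothelial genes, 0.89 for 4 paraxial mesoderm genes, 0.73 for 4 neural crest genes and 0.61 for 2 surface ectoderm genes. The library labelled heterozygote had the lowest summed level of all 5 lists, at 7.70, 20.7 and 5.01 CPM for the last 3, against 25.1 to 58.3, 36.5 to 65.1 and 14.6 to 29.6 CPM elsewhere. The part of these cells in the levels of the CHD genes was not tested. No erythroid or endothelial gene was at 0. Results are also given without the library labelled heterozygote, which stood apart in these lists and had Epor at the EpoR-null level.

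The log fold change was negative for all 8 CHD genes, beside 43.8% of all tested genes. It was negative for 81.0% of the 2881 tested genes with the longest transcripts, a group that holds all 8. Of the 8, 3 genes, Chd1, Chd3 and Chd7, fell past both thresholds of the exact test of edgeR (p below 0.001 and FDR below 0.05, the study's thresholds). Chd3 and Chd7 were near 50% of their control level. Across all 12703 genes tested, 3.84% were called lower and 0.929% higher, while of the CHD genes 37.5% were called lower and 0 of 8 higher. With FDR below 0.05 alone, 4 CHD genes were lower and 0 higher, beside 5.49% and 1.81% of all genes. At an unadjusted p below 0.05 in the exact test, 7 of the 8 were lower, beside 11.9% of all genes and 38.1% of the 2881 longest. At both thresholds, 0 of the 8 and 0 of all genes passed in edgeR's quasi-likelihood F-test. In it, 7 of the 8 had an unadjusted p below 0.05, all lower, as had 3052 of all 12703 genes in either direction. Blocked by the labels' replicate numbers, that test called 2 of the 8, Chd1 and Chd3, beside 2.09% of all genes called lower. The members' median log fold change (log2, EpoR-null minus control) was -0.63, against 0.06 over all genes tested. Both EpoR-null libraries lay below every control for 7 of the 8 genes, an arrangement found in 22.1% of all genes tested. The transcripts of CHD genes are long, and among the 1315 tested genes with a transcript at least as long as that of Chd4, the shortest of the 8, these shares were 22.4% called lower and 60.5% below every control, with a median log fold change of -0.45. In whole neural tubes, fewer cells that express a gene and less RNA per cell cannot be told apart.

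**Figure D1:**
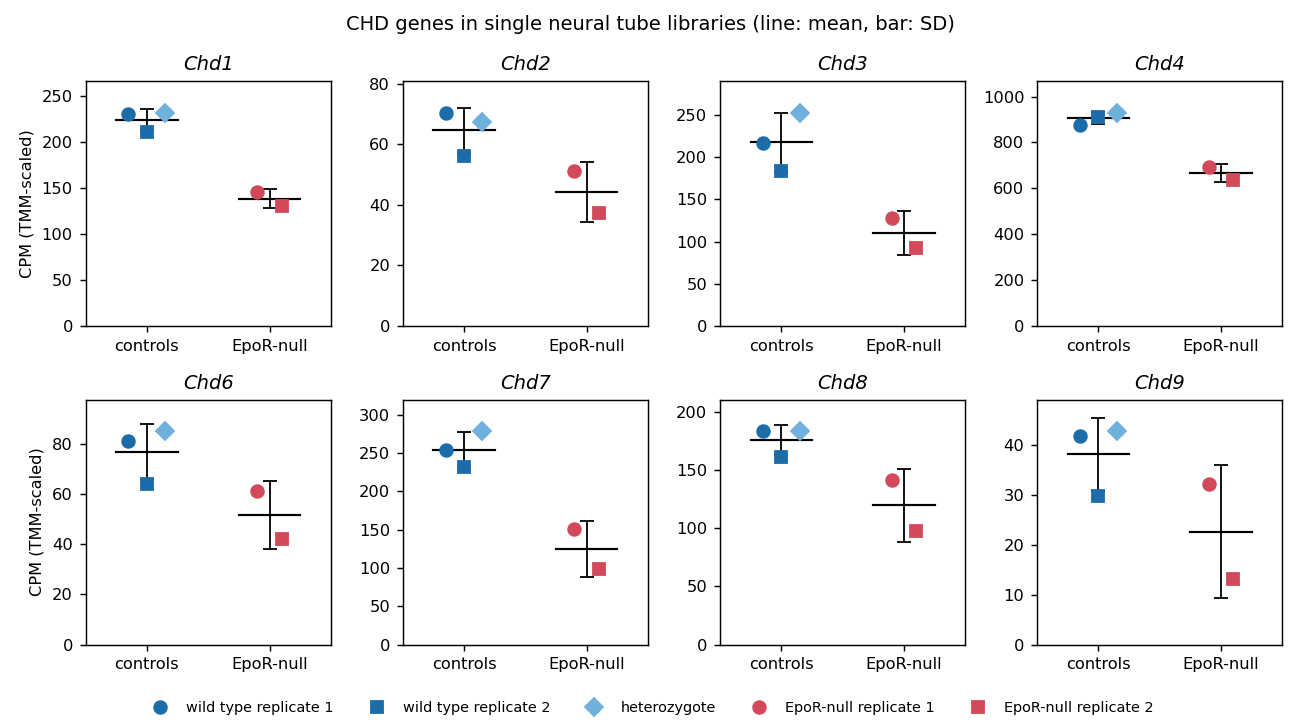
Level of each CHD gene in single libraries, in TMM-scaled CPM on axes that start at 0, with controls in blue and EpoR-null in red. Lines give the group mean and bars the SD (n = 3 controls, n = 2 EpoR-null). The groups are apart for 7 genes, and for Chd9 EpoR-null replicate 1 (32.1 CPM) lies above wild type replicate 2 (29.7 CPM).

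Chd7 had the largest change among the genes that passed. Its level in wild type replicates 1 and 2 was 253.7 and 231.9 CPM, in the library labelled heterozygote 278.3 CPM, and in EpoR-null replicates 1 and 2 it was 150.7 and 98.6 CPM. The lowest control was thus 1.54 times the highest EpoR-null library. Controls averaged 254.6 ± 23.2 CPM (SD, n = 3) against 124.6 ± 36.8 CPM in EpoR-null (SD, n = 2). The log fold change was -1.03 with a standard error of 0.23 (FDR 0.000784 in edgeR's exact test). CHD7 acts at enhancers and is needed in neural crest and neural stem cells. Its gene lies on the plus strand of chromosome 4, from 8690406 to 8867659 in GRCm38, with a longest transcript of 10.2 kb. Chd7 passed both thresholds with any one of the 3 controls left out. In the quasi-likelihood F-test, where edgeR allows for the uncertainty of each gene's dispersion, its FDR was 0.0767.

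Chd3, one of the NuRD motors, had 217.1, 183.0 and 252.3 CPM in wild type replicates 1 and 2 and the library labelled heterozygote. In EpoR-null replicates 1 and 2 it had 128.4 and 92.1 CPM, both below the lowest control. Controls averaged 217.4 ± 34.6 CPM (SD, n = 3) against 110.2 ± 25.7 CPM in EpoR-null (SD, n = 2), and the log fold change was -0.98 with a standard error of 0.23 (FDR 0.00152 in edgeR's exact test). Chd3 is encoded on chromosome 11 from 69343273 to 69369406 (minus strand of GRCm38) and its longest transcript measures 7.26 kb. The control spread was wide for this gene, with the highest value in the library labelled heterozygote, and without that library the log fold change was -0.86 (FDR 0.0290). The quasi-likelihood F-test gave Chd3 an FDR of 0.0813.

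Chd4, the other NuRD motor and the most abundant member, had 877.8, 912.3 and 928.4 CPM in the controls and 694.2 and 637.5 CPM in EpoR-null replicates 1 and 2. The lowest control was 1.26 times the highest EpoR-null library, and the controls were close together (906.1 ± 25.8 CPM, SD, n = 3). The log fold change of Chd4 was -0.44 (standard error 0.14), the smallest of the family, and its p of 0.00140 in the exact test of edgeR missed the threshold of 0.001 while the FDR of 0.0262 was below 0.05. Chd4 lies on chromosome 6 from 125095981 to 125130591 (plus strand). Because Chd3 and Chd4 occupy the same place in NuRD, their ratio was taken within each library, which does not depend on the scaling between libraries. Per kilobase of transcript, Chd4 had 4.38, 5.40 and 3.99 times the level of Chd3 in the controls and 5.86 and 7.51 times in EpoR-null replicates 1 and 2. The ratio was higher in both EpoR-null libraries than in any control. The group means differed by 0.54 on the log2 scale (two-sided exact permutation test over the 5 libraries, p = 0.2). There are 10 arrangements of the libraries, and the smallest p they allow is 0.1.

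Chd1, which reads trimethylated lysine 4 of histone H3 and keeps nucleosomes in order behind RNA polymerase, was the member with the smallest FDR. It had 229.7, 210.7 and 231.2 CPM in the controls against 145.4 and 130.6 CPM in the EpoR-null libraries. Both groups were tight and well apart, at 223.9 ± 11.4 CPM in controls (SD, n = 3) against 138.0 ± 10.4 CPM in EpoR-null (SD, n = 2). The log fold change of -0.70 had a standard error of 0.14, an FDR of 0.000172 in edgeR's exact test and of 0.0590 in the quasi-likelihood F-test. Chd1 is on chromosome 17 from 15704967 to 15772610 (plus strand). Without wild type replicate 1, the FDR was 0.0536 for Chd1 and 0.0621 for Chd3, above the threshold, and 0.0450 for Chd7, leaving 1 member called.

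Chd2, the close relative of Chd1 that is mutated in childhood epilepsies, had 70.4, 56.3 and 67.5 CPM in the controls and 51.3 and 37.3 CPM in EpoR-null. The groups did not overlap, but wild type replicate 2 was only 1.10 times EpoR-null replicate 1, and the log fold change of -0.55 (standard error 0.21) did not pass (exact test of edgeR, FDR 0.102). In GENCODE M21, 19.3% of the exonic bases of Chd2 are shared with the noncoding genes 1810026B05Rik and Gm44686, and reads there could be left uncounted. The gene 1810026B05Rik, also called Chaserr, is a noncoding RNA known to hold back Chd2 in cis, and was looked up after the Chd2 values were seen. It had 20.8, 16.0 and 19.97 CPM in the controls and 22.3 and 21.02 CPM in the EpoR-null libraries, with a log fold change of 0.20 (standard error 0.23, FDR 0.685).

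The remaining members belong to the branch of CHD7. Chd8, whose protein binds beta-catenin and restrains Wnt targets, had 183.1, 161.0 and 183.1 CPM in controls against 141.6 and 97.6 CPM in EpoR-null (log fold change -0.56, standard error 0.21, exact test of edgeR, FDR 0.0839). Chd6 had 81.5, 64.1 and 85.2 CPM against 61.6 and 42.3 CPM (log fold change -0.57, standard error 0.23, FDR 0.140). For both genes the EpoR-null libraries were below all controls, by 1.14 times for Chd8 and 1.04 times for Chd6 between the nearest libraries, and neither passed. Chd9, the scarcest member, had 41.9, 29.7 and 42.7 CPM against 32.1 and 13.2 CPM. The groups overlapped, and its log fold change of -0.75 had a standard error of 0.42 (exact test of edgeR, FDR 0.334). Chd5, a NuRD motor of mature neurons that is no member here, was near the floor with 24, 71 and 37 reads in the controls and 10 and 31 in EpoR-null (log fold change -0.81, standard error 0.53, FDR 0.434).

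**Figure D2:**
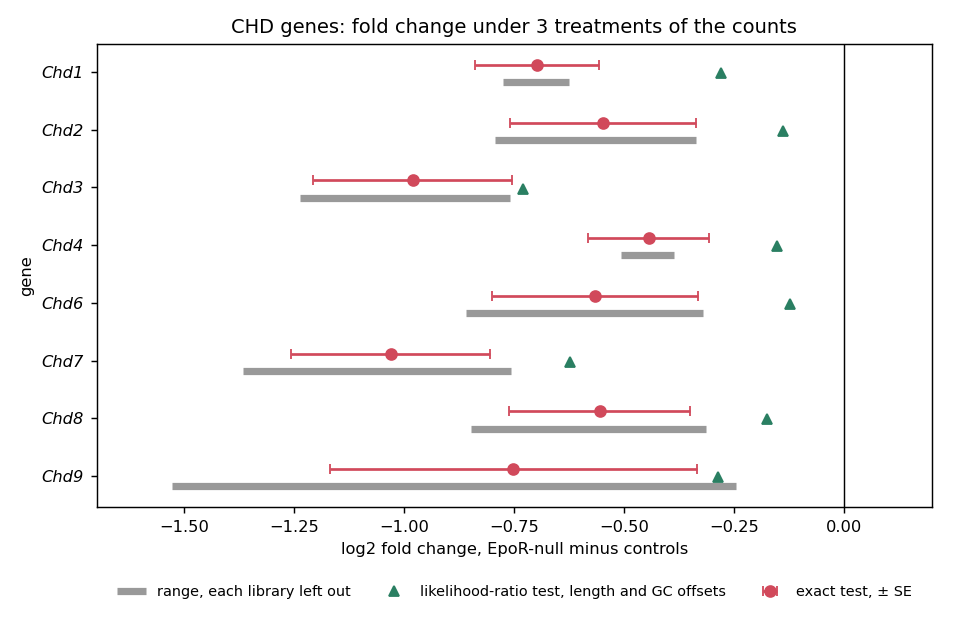
Log2 fold change of each CHD gene, EpoR-null minus controls. Red points give the exact test with its standard error, grey bars the range over 5 fits that each leave out 1 library, and green triangles the likelihood-ratio test after offsets for transcript length and GC content. Every point lies below 0, and with the offsets Chd3 (-0.73) and Chd7 (-0.62) lie farthest from it.

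The 2 EpoR-null libraries were not alike. EpoR-null replicate 2 was the lower one for all 8 genes, with log2 differences to replicate 1 from -1.29 (Chd9) and -0.61 (Chd7) to -0.12 (Chd4). Between the wild type libraries the same difference, replicate 2 minus replicate 1, ran from -0.50 (Chd9) to 0.06 (Chd4). Compared within the replicate number of the labels, EpoR-null replicate 1 against the mean of wild type replicate 1 and the library labelled heterozygote gave log2 differences from -0.87 (Chd3) to -0.37 (Chd8). EpoR-null replicate 2 against wild type replicate 2 gave differences from -1.23 (Chd7) to -0.52 (Chd4). With EpoR-null replicate 1 left out, the log fold changes of the 8 members ran from -1.53 (Chd9) to -0.51 (Chd4). With EpoR-null replicate 2 left out, they ran from -0.76 (Chd3) to -0.25 (Chd9), with Chd8 (-0.31) and Chd6 (-0.32) next to the smallest. In these fits the single EpoR-null library is assumed to vary like the controls, so calls of members from them are not counted. They enter only the ranges over all genes and over associated genes given at the end, where they are marked. The library labelled heterozygote was not lower than wild type for any member, its log2 difference to the wild type mean being from 0.05 (Chd4) to 0.33 (Chd3). Without it, Chd1 (-0.67, FDR 0.0145), Chd3 and Chd7 (-0.96, FDR 0.0225) still passed.

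Levels of the members were compared per kilobase of the longest annotated transcript. In the controls Chd4 stood first at 135.3 ± 3.86 CPM per kb (SD, n = 3), 4.52 times the next gene. Chd3 (29.9 ± 4.77), Chd1 (28.3 ± 1.44) and Chd7 (24.9 ± 2.27) followed, and the ranges of neighbours overlapped among these. Chd8 came next at 20.7 ± 1.501 CPM per kb, below Chd7 in all 3 controls. Chd6 (7.31 ± 1.07) and Chd2 (7.13 ± 0.82) were not distinguished by their spread, and Chd9 was last at 3.17 ± 0.61 CPM per kb. In both EpoR-null libraries the order of Chd7 and Chd8 was the other way round, with Chd7 at 14.7 and 9.65 and Chd8 at 16.6 and 11.5 CPM per kb, and Chd1 stood above Chd3. The 8 genes together came to 255, 244 and 270 CPM per kb in the controls and 185 and 155 in EpoR-null. Of this sum Chd4 made up from 51.3% to 55.7% in controls and 56.0% and 61.5% in EpoR-null, and Chd7 from 9.29% to 10.1% and 7.96% and 6.24%.

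**Figure D3:**
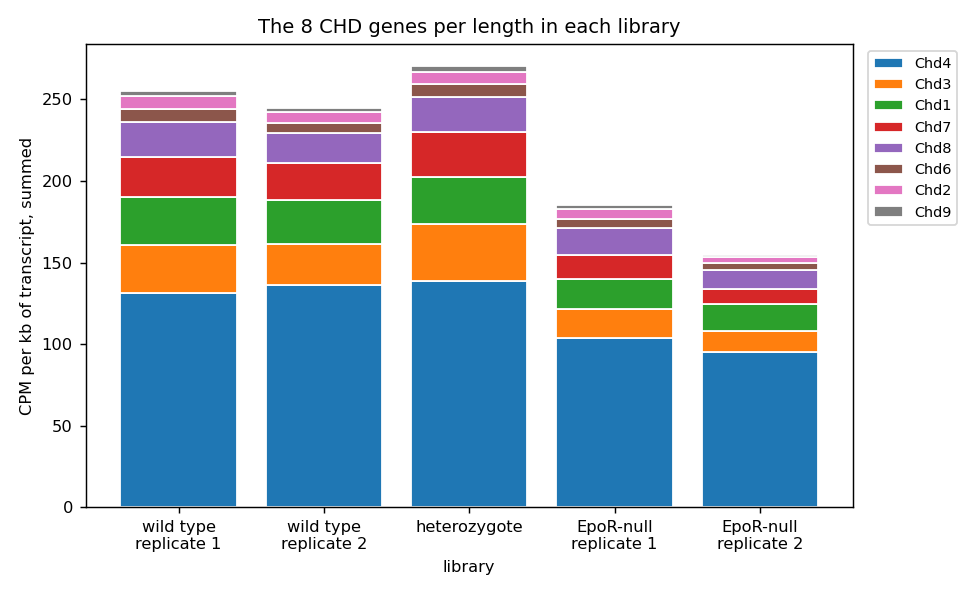
Level of the 8 CHD genes per kilobase of transcript, stacked for each library on an axis that starts at 0. The sum is from 244 to 270 CPM per kb in the 3 controls and 185 and 155 in the EpoR-null libraries, and Chd4 is more than the other 7 together in each library.

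Fold changes over all genes varied with transcript length. Between the 2883 shortest tested genes (up to 2.32 kb) and the 2881 longest (from 4.97 kb), the median log fold change went from 0.33 to -0.32, the share called lower from 0.208% to 13.6% and the share called higher from 3.05% to 0.0347%. The 8 CHD transcripts measured from 6.70 to 12.01 kb, with a median of 8.80 kb against 3.51 kb over all tested genes, and all were among these 2881 longest. A smooth trend on transcript length and GC content, fitted in each library across all genes with a known length, accounted for a difference of -0.39 on the log2 scale between EpoR-null and control libraries at the 8 members on average. With this trend removed by offsets, the median log fold change of the members was -0.23. None of the 8 passed in the likelihood-ratio test of edgeR, beside 145 genes called lower and 22 higher of 11525. In that test 2 of the 8, Chd3 and Chd7, had an unadjusted p below 0.05, both lower, as had 914 of the 11525 in either direction. Chd3 kept a log fold change of -0.73 (FDR 0.0878) and Chd7 of -0.62 (FDR 0.143), followed by Chd9 (-0.29), Chd1 (-0.28), Chd8 (-0.18), Chd4 (-0.15), Chd2 (-0.14) and Chd6 (-0.12), each of these with an FDR of 0.645 or more. RNA quality was not measured in the count tables, and its part in the length trend was not tested.

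**Figure D4:**
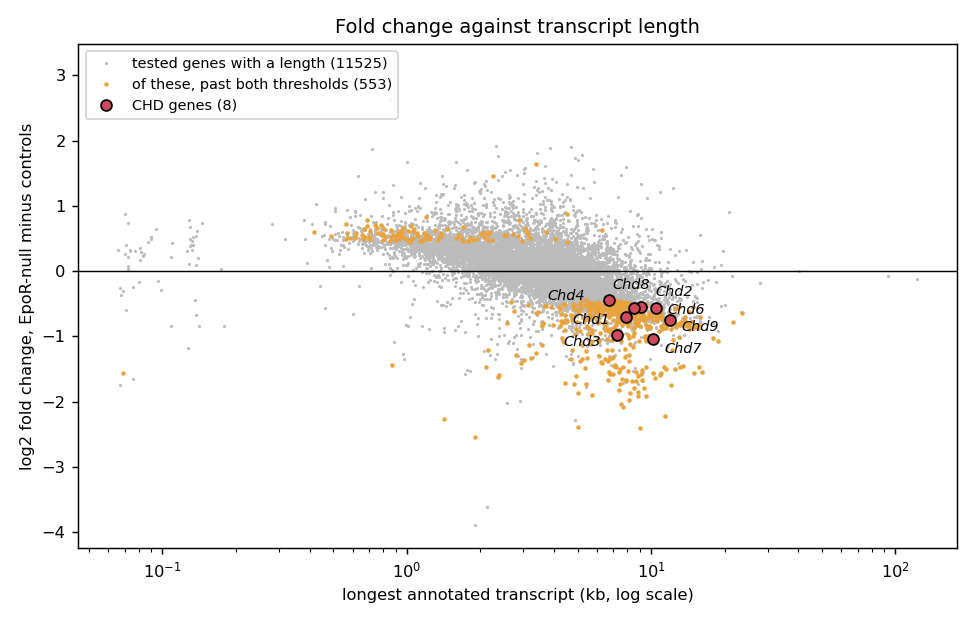
Log2 fold change, EpoR-null minus controls, against the length of the longest annotated transcript on a log scale, 1 point per tested gene with a known length. Orange points passed both thresholds in the exact test, and the 8 CHD genes are outlined red points between 6.70 and 12.01 kb. Genes past the threshold are mostly lower at the long end and higher at the short end.

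The proteins that work with CHD motors were examined as gene lists. Of 12 NuRD partners (deacetylases, histone chaperones, methyl-CpG binding and MTA proteins), 1 fell, 0 rose and 11 did not pass, with a median log fold change of 0.17 and a median transcript length of 2.98 kb. Over all genes 3.84% were called lower and 0.929% higher. The gene that fell was Gatad2b, which encodes a GATA zinc finger subunit that ties CHD4 to the rest of the complex. It had 33.8, 29.97 and 33.2 CPM in controls and 15.1 and 7.96 CPM in EpoR-null (log fold change -1.49, standard error 0.32, FDR 0.000663 in edgeR's exact test and 0.0744 in the quasi-likelihood F-test). Both EpoR-null libraries were below the lowest control, and its transcript of 7.44 kb is the longest of the list, in the range of length where 22.4% of genes were called lower. Gatad2b did not pass without wild type replicate 1, and passed in the likelihood-ratio test with length and GC offsets. Its paralogue Gatad2a had a log fold change of -0.05 (FDR 0.941), and Hdac1, Hdac2, Rbbp4, Rbbp7, Mta1, Mta2, Mta3, Mbd2, Mbd3 and Cdk2ap1 ranged from -0.03 to 0.40.

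Of 20 other motors of the SNF2 type, 19 were in the tables, and 4 of these fell, 0 rose and 15 did not pass, with a median log fold change of -0.33 and a median transcript of 5.92 kb. The share called lower was 3.84% over all genes, 13.6% among the 2881 longest and 22.4% among genes at least as long as Chd4, and the median log fold change of the 2881 longest was -0.32. Log fold changes were negative for 17 of the 19, beside 43.8% of all genes and 81.0% of the 2881 longest. With length and GC offsets 0 of the 19 passed, and without wild type replicate 1 there were 2. Btaf1, which removes the TATA-binding protein from DNA, had 204.3, 209.2 and 178.3 CPM in controls and 97.8 and 106.7 CPM in EpoR-null (log fold change -0.95, standard error 0.15, FDR 4.14e-07). The other genes that fell were Ep400 (-0.68, FDR 5.96e-05), the motor of the TIP60 complex, Rad54l2 (-0.65, FDR 0.000543) and Ino80 (-0.59, FDR 0.00299), the motor of the INO80 complex. All 4, chosen because they passed, were below every control in both EpoR-null libraries. So were 15 of the 19 motors, 22.1% of all tested genes and 60.5% of genes at least as long as Chd4. The quasi-likelihood F-test FDR of the 4 lay between 0.0590 and 0.0615. Hells (-0.53), Shprh (-0.73) and Atrx (-0.79) did not pass both thresholds, nor did Smarca4 (-0.32), Smarca5 (-0.33) or Chd1l (-0.10).

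Of 13 elongation and histone H3.3 partners of CHD1 and CHD2, 0 passed both thresholds in the exact test of edgeR, while 3 were lower and 2 higher at an unadjusted p below 0.05, as were 11.9% and 7.88% of all genes. The 3 were Supt6h (-0.43, FDR 0.0215), Cdc73 (-0.42, FDR 0.0339) and Supt16h (-0.41, FDR 0.0389), which encode SPT6, a PAF1 complex subunit and a FACT subunit. The 2 were H3f3b (0.37, FDR 0.0609) and H3f3a (0.37, FDR 0.0972), the genes of the histone variant H3.3. DESeq2 called 3 genes of this list lower and 2 higher, and 753 lower and 275 higher over all genes.

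Of 12 neural genes tied to CHD7 in earlier work, 10 were expressed enough to be tested and Otx2 and Fgf8 were not. Gli3, a transcription factor of the Hedgehog pathway, fell, and 9 did not pass, beside 3.84% called lower over all genes. Gli3 had 173.3, 167.0 and 177.8 CPM in controls and 117.4 and 109.5 CPM in EpoR-null (log fold change -0.61, standard error 0.13, exact test of edgeR, FDR 0.000514), with a transcript of 8.17 kb. It did not pass in the quasi-likelihood F-test (FDR 0.0590), with length and GC offsets, or without wild type replicate 1. Sox2 (-0.23), Sox4 (-0.56), Sox11 (0.17), Sox9 (0.33) and Twist1 (1.013) did not pass, and Sox9 and Twist1, which also mark neural crest, overlapped between the groups. Of 11 genes tied to CHD8, among them Wdr5, Ash2l, Ctcf, Axin2, Ccnd1, Myc and Trp53, 0 passed in the exact test of edgeR and 3 had an unadjusted p below 0.05, all lower, beside 11.9% of all genes lower at that p, and DESeq2 called 0. These were Axin2 (-0.39, FDR 0.0805), Ctcf (-0.30, FDR 0.221) and Ccnd1 (-0.30, FDR 0.227).

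**Figure D5:**
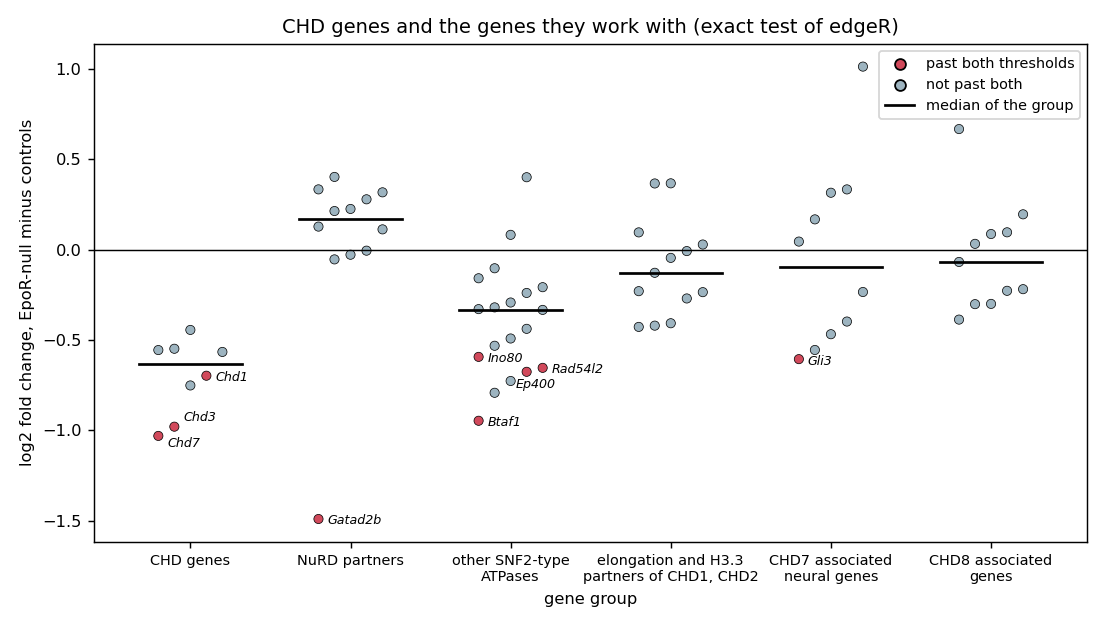
Log2 fold change, EpoR-null minus controls, for the 8 CHD genes and 5 lists of associated genes, 1 point per tested gene, with bars at the median of each group. Red points passed both thresholds in the exact test of edgeR and are named. The medians are -0.63 for the CHD genes, 0.17 for the NuRD partners and -0.33 for the other SNF2-type motors.

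The genes whose course over the 5 libraries was closest to the mean course of the members were Iqgap2, Kif20b, Jmjd1c, Wwp1 and Bod1l, by root mean square distances of 0.03 to 0.04 on the log2 scale between profiles centred per gene. Their transcripts measured from 5.56 to 10.5 kb. Their log fold changes, from -0.76 to -0.65, follow from how they were chosen and were not tested. Among the members, Chd8 (0.08) and Chd6 (0.08) were closest to the mean course and Chd9 (0.27) and Chd4 (0.21) farthest from it.

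Promoter windows of RefSeq on GRCm38.p6, from 250 bases before the start site to 50 after it, were matched for 4 of the 8 members, Chd4, Chd6, Chd8 and Chd9, with 6 windows in all. They were searched on both strands for short motifs. The palindromic NRF1 consensus stood in 0.971% of all 32851 windows of this length. The GC box, searched as the letters GGGCGG, stood in 35.7% of these windows. The motif known as the CCAAT box, spelled as in its name, was present in 37.4%. The STAT motif, searched as TTCNNNGAA, was found in 8.30% of windows, and 13.6% held a TATA box in the spelling TATAAA. The 4 genes had no match to the NRF1, STAT or TATA motifs in these windows. GC boxes or CCAAT boxes were found in 5 of the 6 windows, of which the 2 of Chd4 overlap and share matches. The share of all windows with either of these 2 motifs was not counted. Chd6, on the minus strand of chromosome 2, carried 3 CCAAT boxes at 167, 53 and 22 bases before its start site. These stretches, with the motif in capitals, show the repeated CCAAT boxes of this promoter, from windows at chr2:161109236-161109265, chr2:161109122-161109151 and chr2:161109091-161109120.
Chd6, CCAAT box farthest from the start site: ctccgacatcgaCCAATcaccgctgcgatc
Chd6, CCAAT box in the middle: cagcccacacgaCCAATgaacctgtgtttt
Chd6, CCAAT box nearest to the start site: ggcaggcgaaacCCAATagcgcggcaggga
Chd4 has 3 GC boxes in each of 2 overlapping windows, and Chd8 has 3 GC boxes and 1 CCAAT box. The GC box nearest to the start site of Chd8, at 55 bases before it, is shown with its surroundings at chr14:52257798-52257827 (minus strand).
Chd8, GC box: atggagggcggtGGGCGGgcccaggcgcat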

How the data were processed

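Per the labels, the authors used Trimmomatic 0.32 for trimming, TopHat2 2.1.0 for alignment to mm9 (the study's methods name hg19) and HTSeq 0.6.1 for counting reads per gene. The deposited values are raw read counts per gene symbol, 1 table per library, not normalized. The annotation and strand setting are not given in the sources used here. Reads outside genes (8.11% to 11.0%) and ambiguous reads (1.84% to 2.30%) were left out.

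The test covered the 12703 of 23284 genes whose CPM exceeded 1 in 2 or more libraries, in R 4.3.3 with edgeR 4.0.16, by TMM and exactTest as in the study's methods, with tagwise dispersions chosen here, EpoR-null against wild type plus heterozygote, with Benjamini-Hochberg adjustment (FDR). A gene was called at p below 0.001 and FDR below 0.05. Tested on simulated counts, the exact test, the likelihood-ratio test and DESeq2 called more false genes than their nominal FDR. The exact test also missed the recovery first required of it, and that requirement was lowered more than once with the outcome known. The quasi-likelihood F-test of edgeR is therefore given beside the exact test. Its share of false calls was the smallest, though also above its nominal FDR. DESeq2 1.42.0, other scalings, filters and dispersions, left-out libraries, a replicate block and offsets for transcript length and GC content (loess span 0.5) were the alternatives. P-values rest on the spread between these libraries, and in the exact test each gene's dispersion is drawn towards that of other genes. Log profiles used a prior count of 2.

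Transcript lengths, GC and GRCm38 positions are those of GENCODE M21 (longest transcript), with symbols shared by 90.7% of the genes tested and all 8 members. They do not come from the build of the files. The members and gene lists were chosen with earlier results of these data known. Named genes were the members, Chd5, Epor, up to 4 called genes of each list and the 5 nearest profiles, and other genes of the lists were named after their values were seen.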

Additional observations from a re-analysis of the deposited data

How the results depend on the processing

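All 8 CHD genes kept a negative log fold change in each of the 19 alternatives run for them, and what changed was the number past both thresholds. FDR below 0.05 alone keeps the fold changes of the main fit. Other tests, scalings and filters refit the same 5 libraries, so the 19 are not independent checks. The exact test of edgeR called 3 members lower, and fits without 1 control library gave from 1 (without wild type replicate 1) to 3. The quasi-likelihood F-test called 0 members (7 of 8 at an unadjusted p below 0.05), as did a common dispersion and every fit with length and GC offsets. Wild type as the only control, with the heterozygote as its own group, was run only in the quasi-likelihood F-test and also called 0. The exact test without the library labelled heterozygote called 3. DESeq2, no filter, at least 10 reads in every library and FDR below 0.05 alone each gave 4. A replicate block on the labels' numbers, in the quasi-likelihood F-test, called 2 members (Chd1 and Chd3) and 5 had an FDR below 0.05. The labels do not say that a number marks a shared litter, although the differences between replicates 1 and 2 of wild type and EpoR-null correlated across genes (Pearson's r 0.427, Spearman's rho 0.529), so the block is an alternative only.

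Over all genes tested, 488 were lower and 118 higher. These counts were 0 and 0 in the quasi-likelihood F-test (3052 genes at an unadjusted p below 0.05, in either direction). In that test they were 266 and 25 with the replicate block, and 0 and 0 with wild type as the only control. They were 753 and 275 with DESeq2, 157 and 100 with a common dispersion, and 698 and 230 with FDR alone. Without a filter 550 and 64 were called. Fits without 1 control library gave from 111 to 282 lower and from 4 to 14 higher, and from 2 to 5 associated genes. The ranges of calls over all single libraries, given next, also hold the fits with a single EpoR-null library. Their upper ends come from the fit without EpoR-null replicate 1 and are not relied on, for the reason given above. Leaving out single libraries gave from 111 to 1283 lower and from 4 to 1013 higher. With length and GC offsets the likelihood-ratio test called 145 lower and 22 higher, and the quasi-likelihood F-test 0 and 0, with or without the replicate block (the form without the block was added after seeing the data). Of the associated genes, 6 were called in either direction, against 0 in the quasi-likelihood F-test, 0 with wild type as the only control, 14 with DESeq2, 1 with a common dispersion, 11 with FDR alone, from 2 to 17 without single libraries, and 1 or 0 with the offsets. The ratio of Chd4 to Chd3 stayed higher in EpoR-null, by 0.36 to 0.72 (log2) without single libraries, and by construction was the same without length scaling. At these depths each member had at least 374 reads in every library, while Chd5 and Epor had as few as 10 and 7, with wide counting intervals. For Epor, the interval of the library labelled heterozygote (0.237 to 0.851 CPM) still lay below those of wild type replicates 1 and 2 (from 1.78 and 1.26 CPM). The log fold change of Epor was -1.51 (standard error 0.76, exact test of edgeR, FDR 0.280).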
